A study of Mus musculus with 4 samples.

Results

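Type I interferon response genes were followed through the first days after myocardial infarction (MI) in the mouse heart with 9 genes, Ifit1, Ifit3, Isg15, Irf7, Oasl2, Ifi27l2a, Rsad2, Bst2 and Ifitm3. The members were taken by gene symbol, and all 9 were found among the 32285 genes of the deposited tables. The data are spatial transcriptomes (10x Genomics Visium) of 4 heart sections from adult ICR mice aged 12 weeks whose left anterior descending coronary artery had been permanently ligated, without reperfusion. One section from 1 mouse was taken at each of day 1, 4, 7 and 14 post-MI, and all were fresh-frozen in OCT. No uninjured or sham-operated heart is among these samples, so all 4 groups share the ligation, and no level here is a baseline. With 1 mouse per day, no test between days is possible: differences between days are given with exact 95% intervals that cover counting error only, and day, animal, section and library cannot be told apart. A Visium spot is a small area of tissue that can hold several cells of different types or parts of cells. In sums over spots, fewer cells of a type and less RNA per cell cannot be told apart.

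The cells of injured tissue release RNA and DNA that cytosolic and endosomal sensors can recognise, and the sensors lead to release of type I interferons. Interferon bound to its receptor, Ifnar1 with Ifnar2, activates the kinases Jak1 and Tyk2, and these lead a complex that holds Stat2 and Irf9 to bind the interferon-stimulated response element (ISRE) in the promoters of many interferon-stimulated genes. In the infarcted heart, this response is known for its place in infiltrating myeloid cells and at the border of the infarct. Many of the same genes respond to other interferons too, so the name given to the 9 members is that of their best known inducer and was not read from these sections.

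The members fall into 4 roles, and their positions are given here on GRCm38. Ifit1 (chr19:34640871-34650009, plus strand) and Ifit3 (chr19:34583531-34588731, plus strand) lie close together and encode antiviral proteins with tetratricopeptide repeats. Oasl2 (chr5:114896936-114912234, plus strand) belongs to the oligoadenylate synthetase family, and Rsad2 (chr12:26442746-26456452, minus strand) encodes viperin, an enzyme that makes a chain-terminating nucleotide. Isg15 (chr4:156199424-156200818, minus strand) encodes a ubiquitin-like protein that is attached to other proteins. Irf7 (chr7:141262706-141266481, minus strand) is the transcription factor that amplifies interferon production, and it overlaps Phrf1 on the opposite strand. Bst2 (chr8:71534255-71537456, minus strand) encodes tetherin, which holds budding virions at the membrane, and Ifitm3 (chr7:141009586-141010770, minus strand) a protein of endosomal membranes that blocks entry of viruses. Ifi27l2a (chr12:103442167-103443680, minus strand) encodes a small hydrophobic protein of the Ifi27 family. Ifit3 with Ifit3b, Ifitm3 with Ifitm2 and Ifi27l2a with Ifi27l2b are related genes. Counting could have lost or misplaced reads that match both genes of a pair, and the values of these 3 members are uncertain to that extent.

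The promoters give a description of the members at the level of sequence. The choice by symbol did not use sequence, but it took known interferon-stimulated genes, many of which carry an ISRE. A high share of matches follows from that choice and is not independent support. A promoter here is the stretch from 250 bases before to 50 bases after a gene's start, taken from RefSeq on GRCm38.p6, and 8 of the 9 members had one in the table, Ifi27l2a being the exception. The ISRE-like core GAAANNGAAA, read on both strands (TTTCNNTTTC on the other) with overlapping matches counted, was present in 6 of these 8 promoters (75.0%), against 3.44% of all 32851 promoters and 3.71% of the 9176 tested genes that had one. Among 37 other interferon-stimulated genes of a list described below, 17 had it (45.9%). The promoters of Irf7 and Oasl2 held no match in this window. The windows around the matches are shown 5′ to 3′ on the gene's own strand, with the matches in capitals, because they carry the element through which the members are known to be induced. They lie at chr19:34640773-34640825 for Ifit1 (plus strand), chr19:34583361-34583394 and chr19:34583395-34583428 for the 2 sites of Ifit3 (plus strand), chr4:156200863-156200908 for Isg15 (minus strand), chr12:26456551-26456584 for Rsad2 (minus strand), chr8:71537575-71537614 for Bst2 (minus strand) and chr7:141010715-141010743 for Ifitm3 (minus strand).
Ifit1: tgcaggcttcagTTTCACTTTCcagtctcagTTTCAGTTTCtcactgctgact
Ifit3, first site: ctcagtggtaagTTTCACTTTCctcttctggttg
Ifit3, other site: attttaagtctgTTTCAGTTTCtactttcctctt
Isg15: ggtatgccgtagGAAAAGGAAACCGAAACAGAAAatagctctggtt
Rsad2: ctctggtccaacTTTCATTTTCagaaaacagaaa
Bst2: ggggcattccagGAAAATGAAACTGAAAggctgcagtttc
Ifitm3: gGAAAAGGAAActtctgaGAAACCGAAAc
Isg15 had 3 overlapping matches in 1 run, Bst2 had 2 overlapping matches, and the 2 matches of Ifitm3 lay just after the gene's start. A match is a description of these letters and does not show that a factor was bound there.

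Spots with more than 1% of their UMIs (unique molecular identifiers, 1 per captured RNA molecule) on 8 hemoglobin genes were left out, which kept 7503 of 9102 spots, 1679 to 2086 per section, with 9292678 to 15713779 UMIs per section. Levels are CPM, the UMIs of a gene per 1000000 UMIs of the spots summed. Within each section the kept spots were ranked by the share of their UMIs on the cardiomyocyte genes Myh6 and Myl2 and divided into 4 bins of equal numbers of spots, from bin 1 with the least cardiomyocyte RNA to bin 4 with the most. Bin 1 had a median share of 0.154% to 1.01% and bin 4 one of 2.53% to 2.78%. Other cardiomyocyte genes differed less between the bins on day 1 and day 14. Tnnt2, Tnni3, Actc1, Ttn and Myl3 together had 21521 CPM in bin 1 and 32460 in bin 4 on day 1, and 24756 and 33102 on day 14. On day 4 they had 8090 and 29266, and on day 7 5077 and 32916. Bin 1 of day 1 and day 14 thus still held much cardiomyocyte RNA. Bin 1 was also the shallowest on day 4, 7 and 14 (median 6524.5, 2826 and 2329.5 UMIs per spot, against 9221, 5515 and 8278 in bin 4). Between 1572 and 1918 spot barcodes occur in both sections of any pair, since all slides carry one printed set of barcodes. In the day 7 section, 112 spots, 110 of them in bin 1, held 10 or more UMIs of genes of fast skeletal muscle. Day 7 values of Ifit1 and Rsad2 that rest on these spots are given with and without them. So are several day 7 ratios of the splits within bin 1. The bins stay as ranked on all kept spots, and leaving these spots out was chosen after seeing the data.

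Over whole sections, the members were highest on day 1 to day 7 and lowest on day 14, and those whose level varied most were Isg15, Ifit3 and Ifit1. Isg15 had 56.1 CPM on day 1 (670 UMIs), 24.2 on day 4 (347 UMIs), 25.1 on day 7 (233 UMIs) and 4.26 on day 14 (67 UMIs). The day 1 level was 13.1 times that of day 14 (95% interval 10.2 to 17.2) and 2.32 times that of day 4 (2.03 to 2.65), while day 4 and day 7 did not differ beyond counting error (ratio 0.964, 0.815 to 1.14). Ifit3 had 18.7, 7.94, 7.64 and 1.78 CPM on day 1, 4, 7 and 14, and its day 1 level was 10.5 times that of day 14 (7.05 to 16.1). Ifit1 had 12.5, 8.08, 9.69 and 1.27 CPM, a fold of 9.79 between day 1 and day 14 (6.12 to 16.5), and its ratio of day 1 to day 7 had an interval that included 1 (0.984 to 1.69). Without the skeletal muscle spots the day 7 level of Ifit1 was 6.80, and that ratio was 1.83 (1.35 to 2.52). For these 3 genes the day 14 section stood apart from the other 3, with a ratio of day 7 to day 14 between 4.29 (Ifit3) and 7.61 (Ifit1), or between 3.88 and 5.34 without those spots.

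Irf7 and Oasl2 did not differ between day 1 and day 7 beyond counting error. Irf7, the amplifier of interferon production, had 28.1, 19.2, 26.4 and 3.63 CPM on day 1, 4, 7 and 14. Oasl2 had 17.6, 11.6, 17.6 and 4.07, and Rsad2 had 15.98, 8.08, 15.1 and 2.99. The ratio of day 1 to day 7 was 1.07 for Irf7 (0.902 to 1.26) and 0.996 for Oasl2 (0.808 to 1.23), and day 4 lay below both days for each. For Rsad2 the ratio was 1.06 (0.848 to 1.33) with all spots and 1.62 (1.25 to 2.11) without the skeletal muscle spots, which left a day 7 level of 9.86 and a ratio of day 7 to day 4 of 1.22 (0.913 to 1.62), so the order of day 7 among the sections depends on those spots for this gene.

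The membrane proteins and Ifi27l2a varied less over time. Bst2 was highest on day 7, with 34.5, 34.8, 55.1 and 14.3 CPM on day 1, 4, 7 and 14, and its ratio of day 1 to day 7 was 0.626 (0.548 to 0.714). Ifitm3 had 408, 317, 276 and 146 CPM, each day lower than the one before it, and was seen in 75.6%, 81.5%, 63.4% and 61.0% of spots. Ifi27l2a had 134, 149, 145 and 75.5, and its day 1 level was 1.77 times that of day 14 (1.64 to 1.91). The summed level of the 9 members was 725, 580, 577 and 254 CPM on day 1, 4, 7 and 14, and Ifitm3 and Ifi27l2a gave most of these UMIs.

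**Figure D1:**
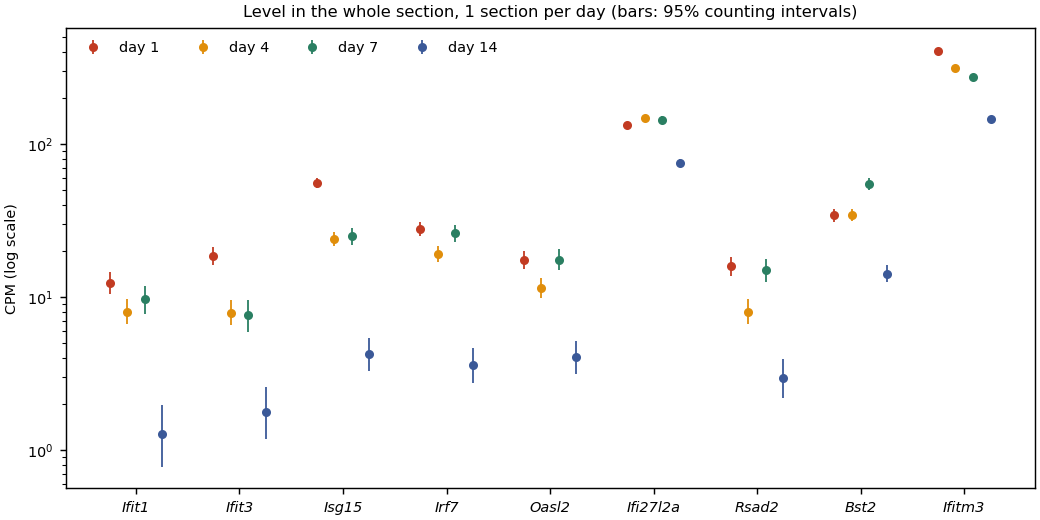
Level of each member in the whole section of each day post-MI as CPM on a log axis, with exact 95% Poisson intervals that cover counting error only (1 section from 1 mouse per day). All 9 members were lowest on day 14, and Isg15 spanned the widest range, from 56.1 on day 1 to 4.26 on day 14.

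The ratio of day 1 to day 14 was larger in bin 1 and bin 2 than in bin 4. Bins hold equal numbers of spots, so bin 1 need not be the same kind of tissue in each section. Its median share of Myh6 and Myl2 was 0.755% on day 1 and 1.01% on day 14. In these ratios, the extent of injured tissue and the level within it cannot be told apart. In bin 4, the ratio of day 1 to day 14 was between 0.578 (Rsad2, 0.132 to 2.01) and 2.23 (Irf7, 0.987 to 5.28), and the interval included 1 for 8 of the 9 members. Ifitm3 was the exception, with a ratio of 1.42 (1.25 to 1.61). In bin 1 the ratio was 13.8 for Isg15 (8.05 to 25.5), 8.50 for Ifit3 (3.71 to 24.0) and 1.94 for Ifi27l2a (1.68 to 2.25), and in bin 2 it was 28.3 for Isg15 (18.0 to 46.9) and 34.1 for Ifit1 (12.9 to 128).

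All 9 members rose from bin 4 to bin 1. Isg15 had 92.4, 83.7, 88.4 and 6.72 CPM in bin 1 on day 1, 4, 7 and 14, and 4.47, 4.21, 8.45 and 3.33 in bin 4. The bin 1 values of day 1, 4 and 7 lay above every bin 4 value, and that of day 14 lay among the bin 4 values. The within-section fold was 20.7 (11.9 to 39.4), 19.9 (12.0 to 35.3), 10.5 (6.63 to 17.3) and 2.02 (0.891 to 4.56). With the sections as a block, Isg15 rose by 2.87 ± 0.56 on the log2 scale (estimate ± SE, 4 sections, edgeR quasi-likelihood test, adjusted p = 0.00097). All p-values here are adjusted over the 11621 genes with at least 100 UMIs, a threshold that all 9 members passed. The size of the day 1 fold depends on the genes that rank the spots. Ranked by Tnnt2, Tnni3, Actc1, Ttn and Myl3 instead, Isg15 had 92.3 CPM in bin 1 and 21.7 in bin 4 of day 1. Ifit3 then had 29.1 and 12.2, and Rsad2 had 22.4 and 11.5. On day 4 Isg15 had 88.5 and 4.04 with that ranking, and on day 7 it had 90.0 and 6.37.

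Of the genes tested, 27.6% were higher in bin 1 and 25.0% were lower at an adjusted p under 0.05, and 9 of 9 members were higher. The median log2 fold change was 2.24 over the members and 0.07 over all genes tested, and 4.99% of genes had a larger change than the members' median. With total UMIs in place of TMM scaling, the 9 members were called again, but the median over all genes was 0.71 and, of the genes called, 84.5% were higher instead of 52.5%. On that scaling the members' log2 fold changes ran from 1.49 (Ifi27l2a) to 3.53 (Isg15). Irf7 had 49.7, 57.6, 83.0 and 10.6 CPM in bin 1 on day 1, 4, 7 and 14, and 5.85, 6.32, 6.53 and 2.62 in bin 4, so that the bins did not overlap. Its log2 fold change was 2.43 ± 0.32 (edgeR, adjusted p = 3.1e-05). Oasl2 had 28.9, 39.2, 55.8 and 11.5 CPM in bin 1 and 4.13, 4.74, 3.07 and 2.38 in bin 4, and rose by 2.43 ± 0.43 (edgeR, adjusted p = 0.00033). These 2 genes had a gradient beyond counting error on day 14 too, with a fold of 4.03 for Irf7 (1.87 to 9.21) and 4.84 for Oasl2 (2.23 to 11.3).

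Ifit1, Ifit3 and Rsad2 had no gradient beyond counting error on day 14. Ifit1 had 18.3, 22.1, 34.0 and 2.40 CPM in bin 1 on day 1, 4, 7 and 14, against 2.41, 2.63, 1.92 and 1.43 in bin 4, and rose by 2.29 ± 0.53 on the log2 scale (edgeR, adjusted p = 0.0021). Ifit3 had 24.5, 23.9, 23.1 and 2.88 against 3.10, 1.84, 1.54 and 2.38, and rose by 2.24 ± 0.49 (edgeR, adjusted p = 0.0014). Rsad2 had 25.9, 22.8, 39.4 and 3.84 against 1.38, 2.37, 6.14 and 2.38, and rose by 2.10 ± 0.54 (edgeR, adjusted p = 0.0050). On day 14 the fold of bin 1 over bin 4 was 1.68 for Ifit1 (0.406 to 6.61), 1.21 for Ifit3 (0.361 to 3.68) and 1.61 for Rsad2 (0.553 to 4.54), from 5 to 10 UMIs per bin. The intervals allow folds up to 6.61, 3.68 and 4.54, and a gradient within those limits was not detectable from so few UMIs. The day 7 gradient of Rsad2 rests on the skeletal muscle spots: without them 9 of its 58 UMIs in bin 1 were left, its level there was 8.98 CPM, and its fold over bin 4 was 1.46 (0.569 to 3.51) in place of 6.42 (3.64 to 11.97). Ifit1 had 19.96 CPM in bin 1 of day 7 without them and a fold of 10.4 (3.79 to 35.4) in place of 17.7. With the remaining spots ranked anew, the log2 fold change over the 4 sections was 1.62 ± 0.59 for Rsad2 (edgeR, adjusted p = 0.030) and 1.91 ± 0.48 for Ifit1 (edgeR, adjusted p = 0.0033).

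Bst2, Ifitm3 and Ifi27l2a had smaller folds on more UMIs, and bin 1 was above bin 4 in all 4 sections. Bst2 had 68.7, 97.5, 145 and 27.8 CPM in bin 1 on day 1, 4, 7 and 14, and 10.3, 15.8, 31.1 and 12.1 in bin 4, and rose by 1.54 ± 0.22 on the log2 scale (edgeR, adjusted p = 5.9e-05). Ifitm3 had 749, 822, 567 and 302 in bin 1 and 174, 149, 157 and 123 in bin 4, and rose by 1.29 ± 0.21 (edgeR, adjusted p = 0.00011). Ifi27l2a had 239, 295, 270.0 and 123 in bin 1 and 85.0, 73.2, 69.9 and 80.4 in bin 4, and rose by 0.86 ± 0.22 (edgeR, adjusted p = 0.0040). Its adjusted p was 0.043 without the day 7 section, the highest that the alternatives gave any member.

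**Figure D2:**
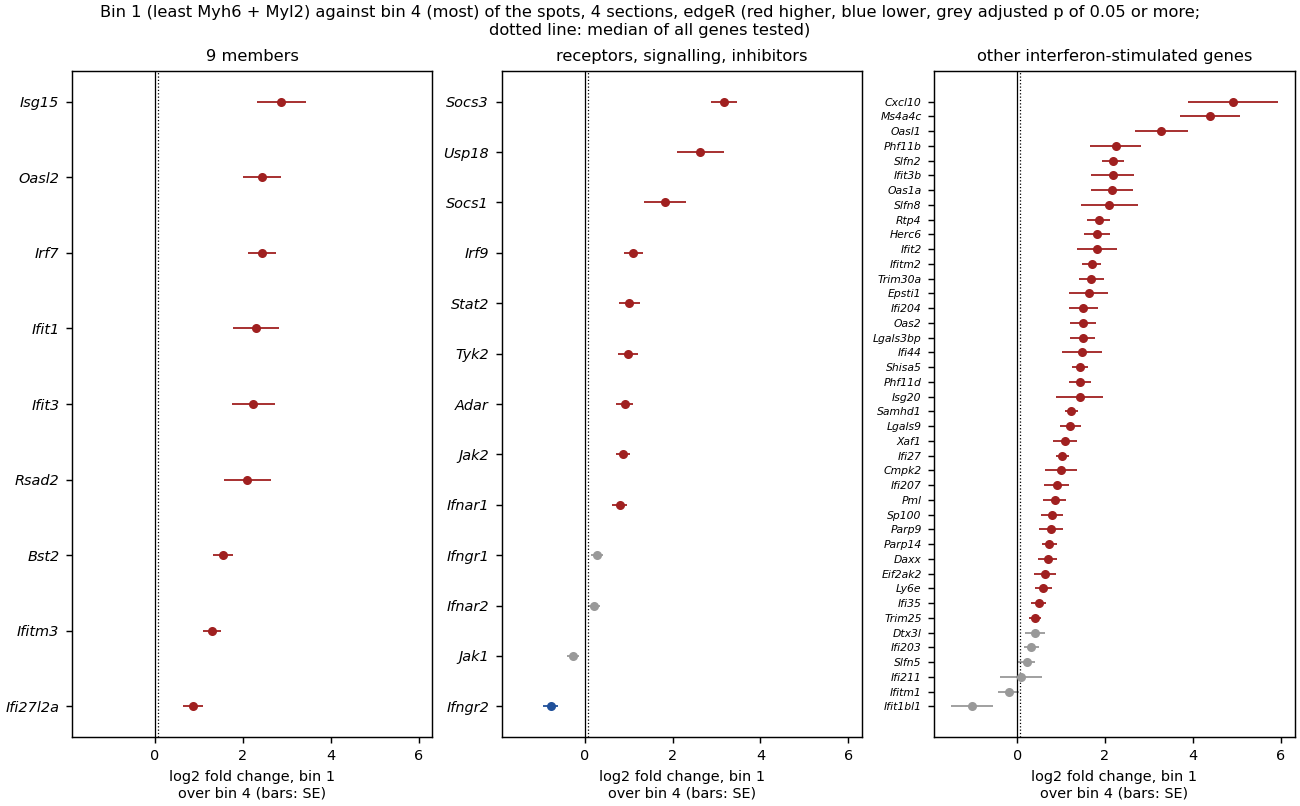
Log2 fold change of bin 1 over bin 4 (edgeR estimates over 4 sections, bars SE) for the 9 members on the left, receptor, signalling and inhibitor genes in the middle and other interferon-stimulated genes on the right, coloured by the call at an adjusted p under 0.05, with a dotted line at the median of all genes tested. All 9 members lie to the right of 0, from Ifi27l2a at 0.86 to Isg15 at 2.87, and Ifngr2 alone among the genes drawn was called lower, a call that total UMIs did not give.

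Ranking the spots into 10 bins, here called deciles 1 to 10 from the least to the most Myh6 and Myl2, placed the day 1 peak of Ifit1, Ifit3, Isg15, Irf7 and Rsad2 in decile 4, where each had an interval above that of decile 1. From decile 1 to decile 10 of day 1, Isg15 had 92.6, 86.7, 130, 170, 53.2, 12.7, 10.9, 7.92, 5.92 and 3.65 CPM. Its level fell between decile 1 and decile 4 in the later sections, from 123 to 31.4 on day 4 and from 92.4 to 35.6 on day 7. Oasl2 (30.1 in decile 1 and 44.97 in decile 3), Bst2 (68.9 and 65.5) and Ifitm3 (775 and 798) did not differ between these deciles beyond their intervals, and Ifi27l2a was highest in decile 1, at 329 CPM. The summed level of the 9 members, which is mostly that of Ifitm3 and Ifi27l2a, was 1407 in decile 1 of day 1 and 1396 in decile 4. In decile 1 of day 14 the sum was 1516, so there it was not lower than on day 1. Isg15 had 16.4 in decile 1 of day 14, from few UMIs, against 92.6 on day 1. On day 14, Ifitm3, Ifi27l2a, Bst2, Oasl2 and Irf7 were highest in decile 1, with intervals above those of decile 2, while Ifit1, Ifit3, Rsad2 and Isg15 had 2 to 5 UMIs there, from which no peak can be read. There Ifitm3 had 956 CPM against 226 in decile 2, Oasl2 had 45.8 against 6.91, and Irf7 had 39.3 against 10.4.

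**Figure D3:**
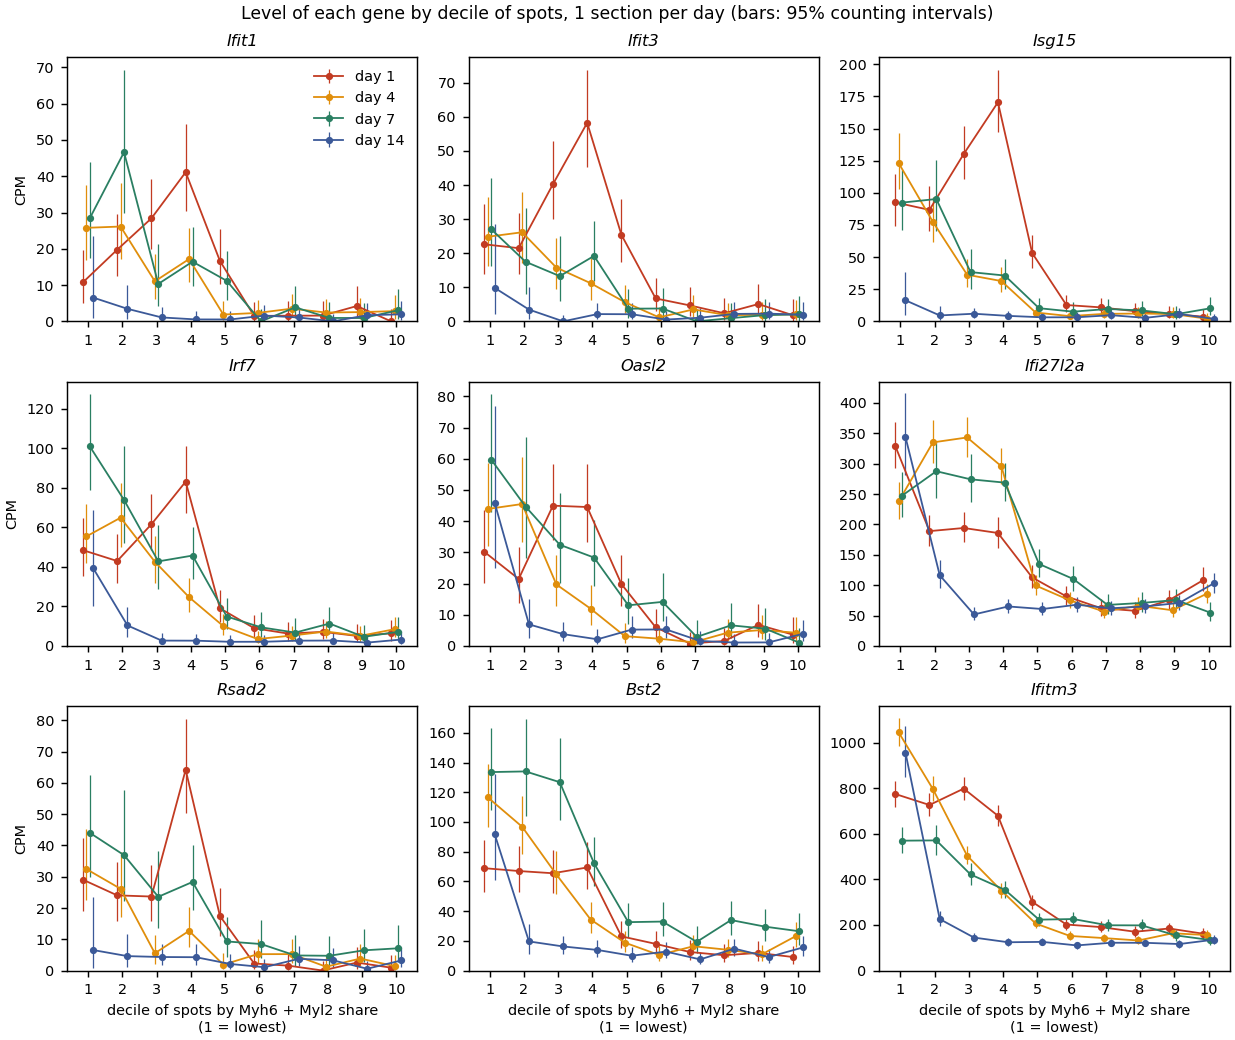
Level of each member as CPM (linear axis from 0, exact 95% counting intervals) in 10 bins of the spots of each section, ranked from the lowest (1) to the highest (10) share of Myh6 and Myl2, with 1 line per section. On day 1, Isg15 peaked at 170 in decile 4, while on day 14 Ifitm3, Ifi27l2a, Bst2, Oasl2 and Irf7 were highest in decile 1 and the other members had too few UMIs for a peak to be read.

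With 4 bins, 6 of the 9 members had a higher level in bin 2 than in bin 1 on day 1, and 0 of 9 did on day 4, 7 and 14. Among all genes, 28.0%, 21.9%, 27.8% and 25.7% were so on day 1, 4, 7 and 14, and among 42 other interferon-stimulated genes 20, 3, 2 and 4 were. The ratio of bin 1 to bin 2 on day 1 was 0.575 for Ifit3 (0.421 to 0.778), 0.634 for Ifit1 (0.439 to 0.907), 0.713 for Rsad2 (0.522 to 0.969) and 0.773 for Isg15 (0.656 to 0.910). The intervals of Irf7 (0.960, 0.758 to 1.21) and Oasl2 (0.816, 0.602 to 1.10) included 1, and Ifi27l2a (1.52), Bst2 (1.43) and Ifitm3 (1.34) were higher in bin 1. On day 4 the ratio ran from 1.35 (Ifi27l2a) to 4.45 (Oasl2) and on day 7 from 1.27 (Ifi27l2a) to 3.82 (Isg15), with every interval above 1. Without the skeletal muscle spots the day 7 intervals of Ifit1 (1.67, 0.902 to 3.02) and Rsad2 (0.517, 0.222 to 1.07) included 1. The day 1 order depends on the genes that rank the spots. With spots ranked by Tnnt2, Tnni3, Actc1, Ttn and Myl3 instead, a setting chosen after seeing the data, the day 1 ratio was 1.20 for Ifit3 (0.854 to 1.67), 1.15 for Ifit1 (0.764 to 1.73), 0.923 for Rsad2 (0.640 to 1.32) and 1.04 for Isg15 (0.869 to 1.24). With that ranking, the ratios of day 4 and day 7 still ran from 1.56 (Ifi27l2a on day 7) to 4.47 (Oasl2 on day 4).

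Over the 4 sections, the members' median log2 fold change was 0.49 between bin 1 and bin 2, 1.69 between bin 2 and bin 3 and 0.18 between bin 3 and bin 4. Between bin 1 and bin 2, Bst2 alone was called (0.67 ± 0.21 on the log2 scale, edgeR, adjusted p = 0.025), where 15.3% of genes were higher and 16.5% lower. This call was lost without the day 4 or the day 7 section, which left 0 members called, and 5 members were called without day 1 (Isg15, Irf7, Oasl2, Ifitm3 and Bst2). Between bin 2 and bin 3, Irf7 (1.69 ± 0.31, edgeR, adjusted p = 0.031) and Ifit3 (2.13 ± 0.46, edgeR, adjusted p = 0.043) were higher, where 0.955% of genes were higher and 0.0172% lower. All 9 members passed an unadjusted p under 0.05 there, as did 2026 of the 11621 genes tested, 1342 of them higher and 684 lower. With day 1, day 4 or day 7 left out, 0 members were called in that step, and without day 14 it was 7. Between bin 3 and bin 4, the edgeR test called 0 members and 0 genes (0.0%), and at an unadjusted p under 0.05 it called 0 members and 169 genes. DESeq2 was not run on this step.

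Ligand transcripts were hardly detected. Of 18 type I interferon genes in the tables, 17 had 0 UMIs in all 4 sections, and Ifnz had 1 UMI on day 4. Ifng, Ifnl2 and Ifnl3 also had 0 UMIs. A count of 0 allows a level of up to 0.191 to 0.323 CPM in a section, so ligand RNA below this level was not detectable.

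The medians of the log2 fold changes of bin 1 over bin 4 were 0.25 over the receptor genes and 0.99 over the signalling genes. Of the 4 receptor genes tested, Ifnar1, a chain of the type I receptor, was higher in bin 1 (0.79 ± 0.17 on the log2 scale, edgeR, adjusted p = 0.0013), and Ifngr2, a chain of the interferon gamma receptor, was lower (−0.78 ± 0.16, edgeR, adjusted p = 0.00089). Ifnar2 (0.22 ± 0.14) and Ifngr1 (0.28 ± 0.14) did not pass. Of the 5 signalling genes, 4 were higher: Irf9 by 1.11, Stat2 by 1.02, Tyk2 by 0.99 and Jak2 by 0.87 on the log2 scale. Jak1 did not pass (−0.27 ± 0.13). The scaling sets the direction of the small changes. With total UMIs, 3 of 4 receptor and 5 of 5 signalling genes were higher, and Jak1 stood at 0.36. Ifngr2 stood at −0.14, no longer called (edgeR, adjusted p = 0.43). The median was then 0.88 over the receptor genes and 1.64 over the signalling genes. On that scaling the median over all genes tested rose too, as given above, so these counts hold that shift.

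Among the genes that lead to interferon release, 10 of 14 sensors and adaptors tested were higher in bin 1 and 1 was lower. The kinase Ikbke (3.75 ± 0.61 on the log2 scale), the transcription factor Irf5 (3.17 ± 0.37), the nucleic acid sensor Zbp1 (2.58 ± 0.51) and the regulator of RNA sensing Dhx58 (2.53 ± 0.41) had the largest changes. Tmem173, which encodes the DNA-sensing adaptor STING, rose by 1.93 ± 0.31, and the endosomal RNA sensor Tlr7 rose by 1.80 ± 0.47. Mavs, the mitochondrial adaptor of RNA sensing, fell by 1.06 on the log2 scale (SE 0.22, edgeR, adjusted p = 0.00075), and by 0.44 with total UMIs. Ticam1, Irf3 and Tlr3 did not pass, with log2 fold changes of 0.32, 0.27 and −0.02. With total UMIs, Ticam1 (0.96, edgeR, adjusted p = 0.0022) and Irf3 (0.91, edgeR, adjusted p = 0.00067) were called higher. Tlr3 stood at 0.62 and was not called (edgeR, adjusted p = 0.068). On that scaling 12 of the 14 genes were higher and 1 was lower, with a median of 1.89, and these counts hold the shift of all genes. All 4 inhibitors tested were higher: Socs3 by 3.17 ± 0.30, Usp18, which removes Isg15 from proteins, by 2.63 ± 0.53, Socs1 by 1.83 ± 0.47 and Adar by 0.91 ± 0.20. On day 1, Usp18 had 15.4 CPM in bin 1, 22.9 in bin 2 and 1.38 in bin 4.

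Of 42 other interferon-stimulated genes tested, 36 were higher in bin 1, 0 were lower and 6 did not pass (Dtx3l, Ifi203, Slfn5, Ifi211, Ifitm1 and Ifit1bl1). Their median log2 fold change was 1.32. The 10 with the largest change were the chemokine gene Cxcl10 (4.91 ± 1.03), Ms4a4c (4.39 ± 0.68), Oasl1 (3.28 ± 0.61), Phf11b (2.24 ± 0.57), the Schlafen gene Slfn2 (2.18 ± 0.26), Ifit3b (2.17 ± 0.49), the synthetase gene Oas1a (2.15 ± 0.48), Slfn8 (2.10 ± 0.65), Rtp4 (1.85 ± 0.26) and the ligase gene Herc6 (1.82 ± 0.29). Cxcl10 was a gene of the early sections, with 49.0, 35.9, 7.48 and 1.92 CPM in bin 1 on day 1, 4, 7 and 14. Of 12 genes tested that respond more to interferon gamma, Serpina3g (1.97 ± 0.39) and Gbp3 (1.52 ± 0.33) were higher, Iigp1 was lower (−0.82 ± 0.30), and 9 did not pass. The median of this list was 0.40. With total UMIs, 7 of these 12 genes and 39 of the 42 other interferon-stimulated genes were higher, and none on either list was lower. Iigp1 then stood at −0.17 (edgeR, adjusted p = 0.63). The medians were 1.05 over the 12 genes and 1.97 over the 42. These counts also hold the shift of all genes on that scaling.

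The monocyte markers (Ccr2, Ly6c2, Chil3, Plac8 and F10) were higher in bin 1 than in bin 4 of every section, as the members were, and all 5 had UMIs in every section. Their summed level in bin 1 was 152, 116, 69.4 and 32.6 CPM on day 1, 4, 7 and 14, against 2.14 to 3.84 in bin 4. In bin 1, Irf7, Oasl2 and Bst2 were higher on day 7 than on day 1. Ifit1 (34.0 against 18.3 CPM) and Rsad2 (39.4 against 25.9) were so with all spots. Without the skeletal muscle spots their day 7 levels were 19.96 and 8.98. The monocyte markers were lower on each later day, and on day 1 they were higher in bin 1 than in bin 2 (93.7). The 10 macrophage markers had another course, at 1254, 6834, 5035 and 1894 in bin 1, so that Isg15 had 73.7, 12.3, 17.6 and 3.55 UMIs per 1000 macrophage-marker UMIs there. In bin 2 this ratio was 163, 11.2, 15.2 and 11.4 on day 1, 4, 7 and 14, and in bin 4 it was 10.9, 7.94, 16.1 and 9.45. For Isg15 the ratio thus lay between 7.94 and 17.6 over these bins on day 4 and 7, from 16 and 22 UMIs in bin 4. On day 14 it was lowest in bin 1. Other members differed. Ifitm3 had 120 in bin 1 and 280 in bin 4 on day 4, and 113 and 299 on day 7. Ifi27l2a had 43.2 and 138 on day 4, and 53.6 and 133 on day 7. Bst2 was also higher in bin 4 on both days. Ifit1, Ifit3, Irf7 and Oasl2 were lower in bin 4 than in bin 1 on day 7, from few UMIs. On day 4 the order was the reverse for Ifit1 (3.24 in bin 1 and 4.97 in bin 4), Irf7 (8.43 and 11.9) and Oasl2 (5.73 and 8.94), while Ifit3 had 3.50 and 3.48. The day 7 values include the skeletal muscle spots, without which Ifit1 had 20 of its 50 UMIs left in bin 1. Neutrophil markers had 439, 159, 107 and 171 CPM in bin 1 and fibroblast markers 2314, 37091, 40578 and 9213. The markers of plasmacytoid dendritic cells (Siglech, Ccr9, Klk1 and Ly6d), cells known for interferon release, totalled 14 to 20 UMIs per section, with Ccr9 at 0 on day 1, Ly6d at 0 on day 7 and both Ccr9 and Klk1 at 0 on day 14. The part of these cell types in the members' levels was not tested beyond the splits described next.

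Within bin 1, a split of the spots at the median share of macrophage markers called 0 of 9 members in edgeR, with 1 member (Ifit1) at an unadjusted p under 0.05. Of the 8545 genes tested, 0 were called (0.0%), 1888 had an unadjusted p under 0.05, and DESeq2 called 199 higher and 407 lower with 0 members among them. The members' log2 fold changes of macrophage-rich over macrophage-poor spots ran from −0.83 ± 0.32 for Ifit1 (edgeR, adjusted p = 0.19) to 0.66 ± 0.30 for Ifi27l2a (edgeR, adjusted p = 0.25). Since edgeR called no gene at all in this split, its 0 of 9 does not show that the members were alike in both sets of spots. The ratios by section, here and in the splits below, are of CPM without the TMM scaling of the edgeR changes. By section, they were of unlike size. On day 1, when macrophage markers were 4.06 times higher in the rich spots, Isg15 had 82.3 CPM in the rich and 100 in the poor spots (ratio 0.820, 0.631 to 1.06), whereas Ifi27l2a had 350 and 151 (2.32, 1.97 to 2.73). Irf7 had 63.2 and 39.1 (1.62, 1.14 to 2.31), and the intervals of the remaining members included 1. On day 4, Ifitm3 had 1012 and 687 (1.47, 1.35 to 1.60) and Oasl2 had 49.8 and 31.6 (1.57, 1.06 to 2.34), and the intervals of the other 7 members included 1. On day 7, Irf7 had 122 in the rich and 49.3 in the poor spots (2.47, 1.67 to 3.72). Isg15 (1.99, 1.37 to 2.90), Ifi27l2a (2.18), Bst2 (2.23) and Ifitm3 (2.11) were also higher in the rich spots, with intervals above 1. Without the skeletal muscle spots these ratios were 3.39 (1.84 to 6.83), 1.66, 1.54 and 1.71, and that of Irf7 was 2.61, again with intervals above 1. The edgeR tests of the splits were not run without those spots. The intervals of Ifit3 and Oasl2 included 1. Ifit1 had 19.1 and 46.8 (0.408, 0.199 to 0.786) and Rsad2 had 22.1 and 54.4 (0.405, 0.209 to 0.744). Without the skeletal muscle spots, Ifit1 had 17.99 and 23.9 (0.754, 0.283 to 2.13), and Rsad2 had 9 UMIs in the rich and 0 in the poor spots, so the low day 7 ratios of these 2 genes rest on those spots. On day 14, Irf7 had 35.4 and 4.22 (8.39, 3.22 to 24.3), Oasl2 had 35.4 and 5.42 (6.53, 2.68 to 16.9), and Ifitm3 had 845 and 163 (5.18, 4.41 to 6.08). Isg15 (3.92, 1.17 to 13.1), Ifi27l2a (4.11) and Bst2 (4.50) also had intervals above 1, and those of Ifit1, Ifit3 and Rsad2 included 1. On that day the macrophage markers were 17.4 times higher in the rich spots. The differences between days were not tested.

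The same split by endothelial or by fibroblast markers also called 0 of 9 members in edgeR, with 0 members at an unadjusted p under 0.05. The endothelial split called 0.176% of genes higher and 0.129% lower, with 471 at an unadjusted p under 0.05, and DESeq2 called 6 genes. The fibroblast split called 0 genes (0.0%) in edgeR, with 1360 at an unadjusted p under 0.05, and DESeq2 called 52 higher and 235 lower. By section, the ratios of the fibroblast split ran from 0.146 for Rsad2 on day 7 (0.0512 to 0.340) to 9.24 for Ifit3 on day 14 (1.32 to 102, from 4 and 2 UMIs). Without the skeletal muscle spots the day 7 ratio of Rsad2 was 1.15 (0.245 to 7.09). The day 7 ratios of Ifi27l2a (1.35), Bst2 (1.40) and Ifitm3 (1.34) had intervals above 1 with all spots. Without those spots they were 0.971, 0.885 and 0.921, with intervals that included 1. Isg15 (2.76) and Irf7 (1.79) kept intervals above 1. Irf7 had a ratio of 8.08 on day 14 (3.17 to 22.2), when fibroblast markers were 15.99 times higher in the rich spots. On day 4, Isg15 (1.90, 1.44 to 2.50), Oasl2 (2.70), Rsad2 (3.80), Bst2 (1.69) and Ifitm3 (1.32) had intervals above 1, and those of the remaining members included 1. The endothelial split had ratios on both sides of 1, such as 0.529 for Irf7 on day 1 (0.363 to 0.762) and 1.59 for Isg15 on day 4 (1.22 to 2.10).

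Spots rich in Isg15 were rich in the other members. The 5% of spots with the highest share of Isg15 numbered 94, 84 and 92 for day 1, 4 and 7, and they held 5.29%, 3.06% and 3.86% of the section's UMIs. On day 14 fewer than 5% of the spots had an Isg15 UMI, so that section was not used. Of the day 1 spots, 43 lay in bin 1, 49 in bin 2, 2 in bin 3 and 0 in bin 4. Rsad2 was 25.9 times higher in these spots than in the rest of the day 1 section (19.3 to 35.1), and they held 59.2% of its UMIs. Its fold was 18.0 for day 4 (12.0 to 26.6) and 8.29 for day 7 (5.49 to 12.3), or 12.8 without the skeletal muscle spots (7.72 to 20.7). Ifit3 was 17.1, 17.8 and 22.9 times higher on day 1, 4 and 7, and Ifit1 15.4, 14.8 and 10.1 times. Irf7 (9.56 to 11.7 times), Oasl2 (8.03 to 10.4 times) and Bst2 (5.60 to 7.10 times) followed. Ifitm3 (3.06 to 3.70 times) and Ifi27l2a (2.46 to 4.09 times) had smaller folds, with every interval above 1.

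Markers of several cell types were higher in the same spots. Monocyte markers were 6.78 (5.73 to 7.99), 5.67 and 5.01 times higher for day 1, 4 and 7. Macrophage markers were 1.53, 2.91 and 3.03 times higher, neutrophil markers 1.18 (0.959 to 1.45), 3.19 and 4.03 times and fibroblast markers 1.47, 3.30 and 2.90 times. Cardiomyocyte markers were at 0.891, 0.412 and 0.432 times the level of the other spots. On day 7 the skeletal muscle markers were 5.58 times higher too. Adipocyte markers were 5.56 times higher on day 4 (3.85 to 7.85), and mesothelium markers 5.09 times (2.91 to 8.42). On day 7 mesothelium markers were 4.46 times higher (3.44 to 5.72), and T and NK cell markers 4.39 times (1.51 to 10.6, from 6 UMIs). Folds of this size on day 4 and 7 were thus not particular to monocyte markers.

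**Figure D4:**
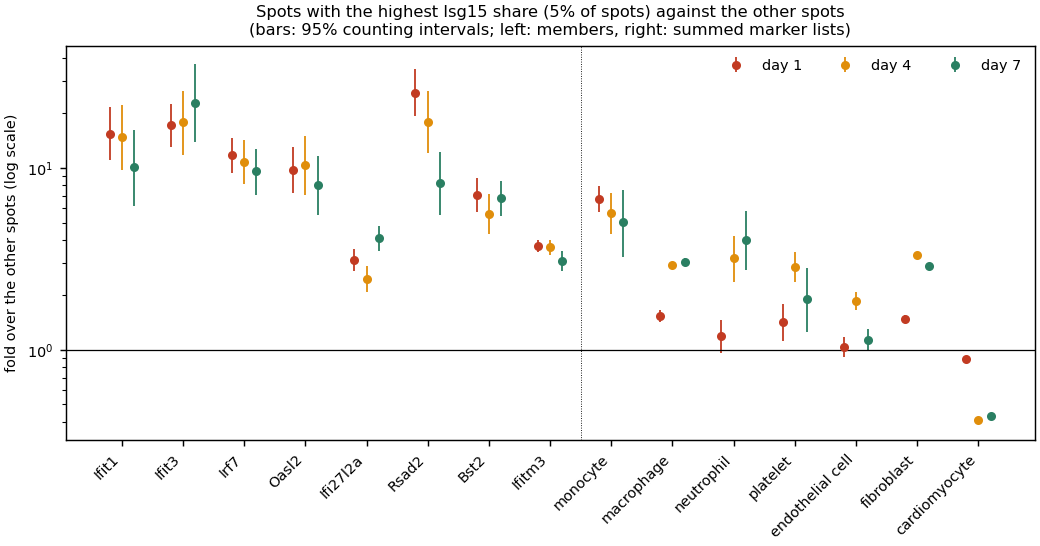
Fold in the 5% of spots with the highest Isg15 share over the other spots of the section, on a log axis, with exact 95% intervals for day 1, 4 and 7. Drawn are the members other than Isg15 and the marker lists of monocytes, macrophages, neutrophils, platelets, endothelial cells, fibroblasts and cardiomyocytes. The other marker lists are not drawn. On day 1, Rsad2, Ifit3 and Ifit1 had the largest folds (25.9, 17.1 and 15.4), monocyte markers stood at 6.78 and cardiomyocyte markers just under 1.

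The members that are seen in few spots were also counted together. For Ifit1, Ifit3, Isg15, Irf7, Oasl2 and Rsad2, a group chosen after its values were seen, 228 spots held at least 2 of the 6 genes on day 1 (12.1% of spots), and the shares on day 4, 7 and 14 were 10.1%, 7.68% and 0.767%. On day 1 the share was 19.0% in bin 1, 25.6% in bin 2 and 1.27% in bin 4, at median depths of 6389, 6882 and 5971 UMIs per spot. These shares rise with each gene's own rate of detection, so they are a description and show no excess of spots that hold several members. On day 4 it was 26.4% in bin 1 and 2.15% in bin 4. With each spot thinned to 2000 UMIs, the section shares were 4.57%, 2.69%, 2.93% and 0.110%, after 119, 43, 175 and 267 shallower spots had been left out on day 1, 4, 7 and 14.

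The correlation of the members over spots was highest on day 1 and close to 0 on day 14. Levels were ln(1 + UMIs per 10000) per spot, and the spots of a section share its library and its differences in depth, so the values are a description. The mean Pearson's r over the 36 pairs of members was 0.317, 0.260, 0.181 and 0.0380 over the 1890, 1679, 1848 and 2086 spots of day 1, 4, 7 and 14, and r was above 0 in 36, 36, 36 and 28 pairs. The highest pair was Isg15 with Irf7 in the day 1 section (0.508). For day 4 and day 7 it was Ifit3 with Isg15 (0.376 and 0.334), and for day 14 it was Ifi27l2a with Ifitm3 (0.166). The lowest pair on day 1 was Oasl2 with Ifi27l2a (0.143). Within bin 1 the mean r was 0.298, 0.254, 0.132 and 0.0508 on day 1, 4, 7 and 14. With spots thinned to 2000 UMIs the mean r was 0.150, 0.166, 0.126 and 0.0392, and day 1 was then not above day 4.

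**Figure D5:**
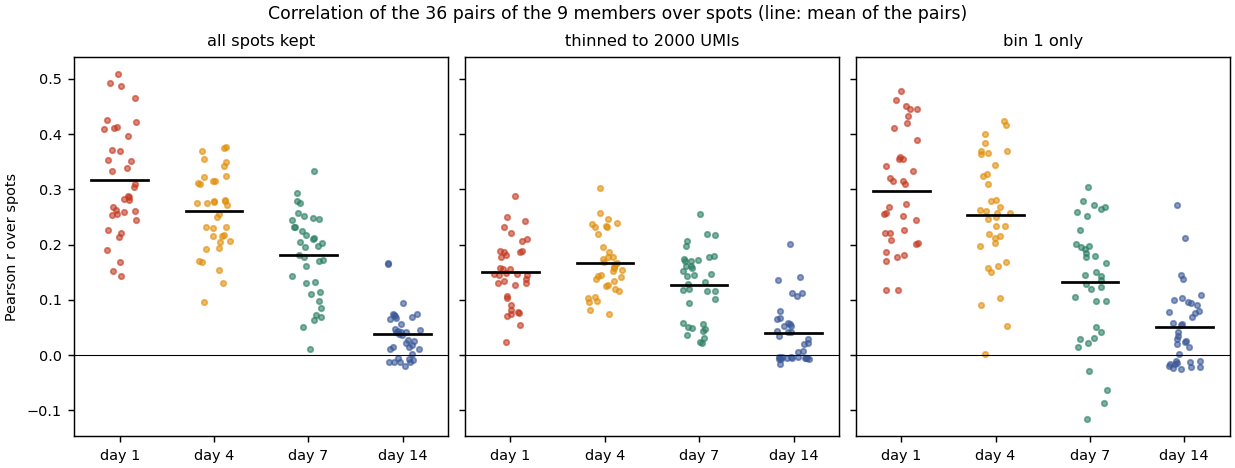
Pearson's r over spots of each of the 36 pairs of members by section, with 1 point per pair and a line at their mean, for all kept spots, for spots thinned to 2000 UMIs and for the spots of bin 1 alone. The means for all kept spots fall from 0.317 in the day 1 section to 0.0380 in that of day 14, and after thinning day 4 has the highest mean. Most members had few UMIs on day 14, and the part of this in the low r there was not tested.

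Among genes outside the members with at least 1000 UMIs, the 10 most like their summed share were not on the lists of interferon-stimulated genes. That minimum left out the 10 interferon-stimulated genes with the largest rise named above, such as Slfn2 (744 UMIs) and Cxcl10 (422 UMIs). The likeness of those genes to the members was not measured. Of 4765 genes with at least 1000 UMIs, the 10 with the highest mean r over the 4 sections were the cytoskeletal gene Actb (0.495), the elongation factor gene Eef1a1 (0.492), the collagen genes Col3a1 (0.490) and Col1a2 (0.467), the matrix genes Sparc (0.481), Bgn (0.472) and Fn1 (0.456), the ferritin gene Ftl1 (0.474), the actin-binding gene Tmsb4x (0.455) and the myeloid lysozyme gene Lyz2 (0.449). The summed share is mostly that of Ifitm3 and Ifi27l2a. For the 6 less abundant members alone, a measure chosen after seeing the data, the genes most like them differed by day. On day 1 they were, in order, the muscle and stress genes Acta1 (0.421) and Nppb (0.415), the interferon-stimulated Rnf213 (0.408), the muscle stress gene Ankrd1 (0.407), the interferon-stimulated Lgals9 (0.394) and the chemokine gene Ccl7 (0.394). On day 4 they were Timp1 (0.467), Actb (0.467) and Col3a1 (0.466), and on day 7 Apoe (0.332), Col1a2 (0.318) and the skeletal muscle gene Tnnc2 (0.314). On day 14 the highest values were lower, at 0.192 for Ftl1-ps1, 0.169 for Mgat2 and 0.167 for Timp3.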

How the data were processed

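The deposited files were raw UMI counts per gene and spot, 1 matrix per section, which the authors made with Space Ranger 1.3.0 on the mm10 genome, per the labels and the matrix headers. Seurat 4.1.1 is also named in the submitters' processing notes. The groups were the 4 days in the sample labels, with 1 section from 1 mouse each. Spots above 1% hemoglobin UMIs were removed, and UMIs were summed per section and bin into 16 libraries. Genes with at least 100 UMIs over these libraries (11621) were tested with edgeR 4.0.16 (quasi-likelihood, TMM, section as a block, R 4.3.3) and Benjamini-Hochberg adjustment at 0.05, and splits of bin 1 were tested likewise in 8 libraries (8545 genes). The 4 sections are the replicates, and each is another day. Intervals are exact Poisson (levels) or exact conditional binomial (ratios) at 95%, and cover counting error only. A count of 0 was given the limit of 3 counts. DESeq2 1.42.0, total UMIs, other filters, another ranking and leaving out each section were the alternatives. The tests were tried on simulated counts with known changes.

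The members and gene lists were chosen with earlier results of these data known. The text names all 9 members, the genes of the pathway lists where their calls are given, the 10 other interferon-stimulated genes with the largest rise and any that fell, and the 10 non-member genes most correlated with the summed share of the members. Rigi, Sting1 and Mb21d1 are other names of Ddx58, Tmem173 and Cgas, and Cxcl11, Mx1 and Mx2 were not analysed here. One signalling gene is not reported here. Loci are from GENCODE vM21 and promoters from RefSeq.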

Additional observations from a re-analysis of the deposited data

Results flagged for a closer look

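For 4 members, bins 1 and 2 of the ranking by Myh6 and Myl2 stood in opposite order in different sections, with intervals of counting error that did not include 1. The ratio of bin 1 to bin 2 was 0.634 on day 1, 2.36 on day 4 and 2.85 on day 7 for Ifit1, and 0.575, 2.72 and 2.14 for Ifit3. It was 0.773, 3.84 and 3.82 for Isg15, and 0.713, 3.22 and 2.09 for Rsad2. Without the skeletal muscle spots the day 7 ratio was 1.67 for Ifit1 (0.902 to 3.02) and 0.517 for Rsad2 (0.222 to 1.07). The difference between the days was not tested, since each day is 1 section, and the day 1 ratios had intervals that included 1 with spots ranked by the other cardiomyocyte genes.

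Signal of the members was also present in the spots left out for more than 1% hemoglobin UMIs, which entered no value of the report apart from the alternatives without that filter. Their summed level there was 376 CPM on day 1 (261 spots), 653 on day 4 (347 spots), 499.9 on day 7 (336 spots) and 392 on day 14 (655 spots). Against the kept spots this was 0.519, 1.13, 0.866 and 1.54 times as high.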

How the results depend on the processing

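Between bin 1 and bin 4, 148 of 148 alternative values of the 9 members kept their direction and stayed called, with adjusted p up to 0.043. Their size changed more. The lowest log2 fold changes of Isg15 (2.31), Ifit3 (1.54) and Rsad2 (1.54) came with spots ranked by the other cardiomyocyte genes, as did those of Irf7 (1.99) and Oasl2 (2.09). With a gene minimum of 1000 UMIs, 4 members were tested and 4 were called, and 3227 genes were called in place of 6107. With each section left out in turn, 0 to 5 members were called between bin 1 and bin 2 (1 with all sections) and 0 to 7 between bin 2 and bin 3 (2 with all sections). Uncalled values between bin 1 and bin 2 turned sign there: Ifit1 ranged from −0.16 to 0.85, Ifit3 from −0.30 to 0.68, Ifi27l2a from −0.025 to 0.23 and Rsad2 from −0.21 to 0.59 on the log2 scale. In the macrophage split, Ifit3 was 0.28 with total UMIs, 0.0066 with DESeq2 and −0.19 to 0.24 with each section left out in turn, Isg15 was −0.06 without day 14 and −0.11 without day 7, and Rsad2 ranged from −0.73 to 0.048 with each section left out. That split called 606 genes with DESeq2, 801 without day 1, 143 without day 14 and 122 with spots of at least 1000 UMIs, in place of 0. The fibroblast split called 287 with DESeq2 and 9 without day 14, in place of 0, and the endothelial split 6 with DESeq2, 15 without day 7 and 48 with spots of at least 1000 UMIs, in place of 26. All genes called between bin 1 and bin 2 were 1380 without day 4 and 1556 without day 7, in place of 3703, and between bin 2 and bin 3 0 without day 1 or day 4, 1 without day 7 and 860 without day 14, in place of 113. The ratio of bin 2 to bin 1 of day 1, ranked by other cardiomyocyte genes, was 0.867 for Ifit1, 0.836 for Ifit3 and 0.961 for Isg15.

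Per 1000000 nuclear-encoded UMIs, the summed level of the members was 990, 821, 759 and 386 on day 1, 4, 7 and 14. Without the hemoglobin filter it was 706 on day 1 and 267 on day 14, and without skeletal muscle spots 560 on day 7. The mean correlation was 0.150 on day 1 and 0.126 on day 7 after thinning, 0.166 (thinned) and 0.168 (Spearman's rho) on day 4, and 0.132 within bin 1 of day 7. The cause of these changes was not tested. Few UMIs limit the day 14 values of Ifit1, Ifit3 and Rsad2, with 20 to 47 in that section, although it held the most UMIs of all genes (15713779). Bins were compared within sections, with the section as a block. Between days, no paired analysis was possible because each day holds 1 section from 1 mouse.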
